A study of Arabidopsis thaliana with 6 samples.

Results

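The genes described here lie around the 2 ends that were joined in a reciprocal translocation between Chr. 1 and Chr. 2 of the Arabidopsis mutant *flpl1*. Listed genes were taken where their start fell within 500 kb on either side of position 22888469 on Chr. 1 or of position 10120869 on Chr. 2 (TAIR10), which gave 272 genes on Chr. 1 and 273 on Chr. 2, together 545 of the 32243 genes listed. The *flpl1* plants (line C30-81-as6) came from Col-0 dry seeds irradiated with carbon ions, carry the translocation and an additional Chr. 2, and were compared with the wild type Col-0. Each of the 3 *flpl1* and 3 Col-0 RNA-seq libraries was made from the fully mature leaves of an individual plant, all plants having the same age. The 3 *flpl1* plants belong to a single mutant line, which also carries point mutations, small deletions and further candidate rearrangements on Chr. 2, Chr. 3, Chr. 4 and Chr. 5. The rearrangement that the study lists within Chr. 2 lies just beyond the higher end of the stretch taken here. A small deletion is listed inside that stretch. A difference from Col-0 therefore cannot be assigned to the translocation alone. The question asked of these libraries was whether the genes beside the breakpoints differed between *flpl1* and Col-0, and whether this depended on the chromosome, the side or the distance.

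In a reciprocal translocation the broken ends of different chromosomes are exchanged. A gene cut by the break loses part of its transcript, and a gene beside it keeps its own sequence but gains new neighbours, whose promoters, enhancers and chromatin may act across the junction. In the structure proposed by the study, the lower-coordinate side of Chr. 1 was joined to the higher-coordinate side of Chr. 2, and the lower-coordinate side of Chr. 2 to the higher-coordinate side of Chr. 1. All Chr. 1 copies carried the exchange, whereas a Chr. 2 copy without it was also present, so that the genes on both sides of the Chr. 2 position had an extra copy and those around the Chr. 1 position did not. In plants and animals, the RNA of a gene in extra copy is often raised roughly with the number of copies, with wide variation from gene to gene.

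The libraries held 19465078 to 24633070 counts on genes. The mesophyll markers chosen for the check of the tissue (*RBCS1A*, *CAB1*, *CAB2*, *RCA* and *CA1*) summed to 38623 to 43117 FPKM in *flpl1* and 13743 to 30253 FPKM in Col-0, and the shoot meristem markers to 0 FPKM in *flpl1* and at most 0.03 FPKM in Col-0. Floral markers summed to 2.40 to 3.04 FPKM in *flpl1* and 3.52 to 8.54 FPKM in Col-0, and root markers to 0.05 to 0.18 FPKM in *flpl1* and 0 in Col-0. Guard cell markers summed to 25.5 to 28.5 FPKM in *flpl1* and 20.8 to 26.1 FPKM in Col-0, and the phloem marker *SUC2* had 104 to 153 FPKM in *flpl1* and 146 to 193 FPKM in Col-0. The part of cell type shares in the results was not tested. In whole leaves, fewer cells of a type and less RNA per cell cannot be told apart.

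The sequences at both positions are shown because they fix which gene each break touches. They were read from the TAIR10.1 genome on its forward strand, with the base at the breakpoint position and 3 bases on either side in capitals. The Chr. 1 stretch, Chr1:22888386-22888481, ends shortly after the position. The Chr. 2 stretch, Chr2:10120794-10120944, lies within the coding sequence of *LYK4*, which is on the reverse strand.
Chr. 1 position: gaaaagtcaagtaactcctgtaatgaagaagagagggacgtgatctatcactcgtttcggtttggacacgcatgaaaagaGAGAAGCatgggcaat
Chr. 2 position: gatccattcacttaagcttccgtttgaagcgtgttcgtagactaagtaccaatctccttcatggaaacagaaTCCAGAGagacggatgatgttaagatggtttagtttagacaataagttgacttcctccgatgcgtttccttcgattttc

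The Chr. 1 position fell on base 18 of AT1G61920, a gene for an uncharacterized protein on the forward strand (Chr. 1, 22888452 to 22889037, a single exon), ahead of its coding sequence. The study lists another junction a few bases farther along Chr. 1, which was not used here, so this placement describes the chosen position only. AT1G61920 had 15, 9 and 6 counts in the *flpl1* libraries, against 0, 4 and 0 counts in the Col-0 libraries, or 1.06, 0.77 and 0.46 FPKM against 0, 0.29 and 0 FPKM. All *flpl1* values lay above all Col-0 values, but the counts were too low for the fit across genes, and the exact permutation test on FPKM gave a two-sided p of 0.1, the smallest that 3 against 3 libraries allow.

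The Chr. 2 position fell inside *LYK4* (AT2G23770), at base 1212 of its 1839-base coding sequence counted from the start codon. *LYK4* is a receptor-like kinase with extracellular LysM domains that takes part in the perception of chitin, a component of fungal cell walls, and its single exon runs from 10119973 to 10122479. Of the coding sequence, 65.9% lies up to this position and 627 bases lie after it. The study lists another junction at a different place within *LYK4*, which was not used here, so these lengths describe the chosen position and not the structure of both translocated copies. *LYK4* had 125, 157 and 208 counts in the *flpl1* libraries, against 250, 188 and 96 counts in the Col-0 libraries, which is 2.82, 4.26 and 5.09 FPKM against 5.52, 4.4 and 2.68 FPKM. The groups overlapped, and the log2 fold change was 0.07 ± 0.33 (SE), with an edgeR adjusted p of 0.86. The sign of this value turned when *flpl1* replicate 3 (-0.09) or Col-0 replicate 3 (-0.18) was left out. The deposited span of *LYK4*, 10120242 to 10122080, is that of its coding sequence, and the counts are a single total. The parts before and after the position were therefore not measured separately.

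Among the 8 LysM receptors of the genome, of which only *LYK4* lies in a window, 7 were tested, 4 were higher in *flpl1*, none was lower, and the median log2 fold change was 0.65. Over all 18638 tested genes 30.9% were higher and 30.7% lower (61.6% in either direction), and the median was 0.0015. *CERK1*, the kinase that chitin receptors signal through, averaged 16.3 ± 3.82 FPKM in *flpl1* and 16.8 ± 0.99 FPKM in Col-0 (SD, n = 3 each) and did not pass the test (edgeR adjusted p = 0.70), nor did *LYK5*, the close partner of *LYK4* in chitin binding, with 3.53 ± 0.84 FPKM in *flpl1* and 4.61 ± 0.47 FPKM in Col-0 (SD, n = 3 each; edgeR adjusted p = 0.35). The receptors that rose were *LYM1* (log2 fold change 2.06), *LYK3* (1.72), *LYM3* (1.31) and, with overlapping groups, *LYM2* (0.65, edgeR adjusted p = 0.0497). Of 8 genes that act after chitin receptors, all of them tested, 1 was higher and 2 were lower, with a median of -0.10, and the share called, 37.5%, was below the 61.6% of all tested genes. *MPK4* was the one that rose (0.55), and *MPK3*, a kinase activated in immune signalling, and AT5G18610 (*PBL27*) were those that fell (-0.92 and -0.53).

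Of the 545 window genes, 137 had no count in any library and 311 passed the filter on low counts, 156 on Chr. 1 and 155 on Chr. 2. Of these, 11 reached the count limit of the filter only in *flpl1* libraries and 6 only in Col-0 libraries. In the Chr. 1 window, 37 tested genes (23.7%) were higher and 47 (30.1%) lower in *flpl1*, beside the same 30.9% and 30.7% over all tested genes. In the Chr. 2 window, 76 tested genes (49.0%) were higher and 19 (12.3%) lower. Counting only changes of at least 2-fold, 19 genes rose and 17 fell in the Chr. 1 window and 52 rose and 11 fell in the Chr. 2 window, beside a background of 19.8% and 14.4%. Without *flpl1* replicate 2, the number of lower genes in the Chr. 2 window was 11.

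The Chr. 1 window had a median log2 fold change of -0.05 and the Chr. 2 window one of 0.52, which is a 1.44-fold higher level in *flpl1*. The median of Chr. 3, Chr. 4 and Chr. 5 was -0.09, so that the Chr. 2 window stood 0.61 above these chromosomes and the Chr. 1 window 0.04. The Chr. 1 median was 0.046 when libraries were scaled on the genes outside Chr. 2, so its sign depends on the scaling. Outside the windows the rest of Chr. 2 had a median of 0.55, with 52.2% of tested genes higher and 13.9% lower, and the rest of Chr. 1 one of -0.10, with 27.1% higher and 33.6% lower. Each window was thus close to the remainder of its own chromosome, although the difference was not tested. The groups did not overlap in FPKM for 88 genes of the Chr. 1 window (56.4%) and 96 genes of the Chr. 2 window (61.9%), beside 68.2% of all tested genes.

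**Figure D1:**
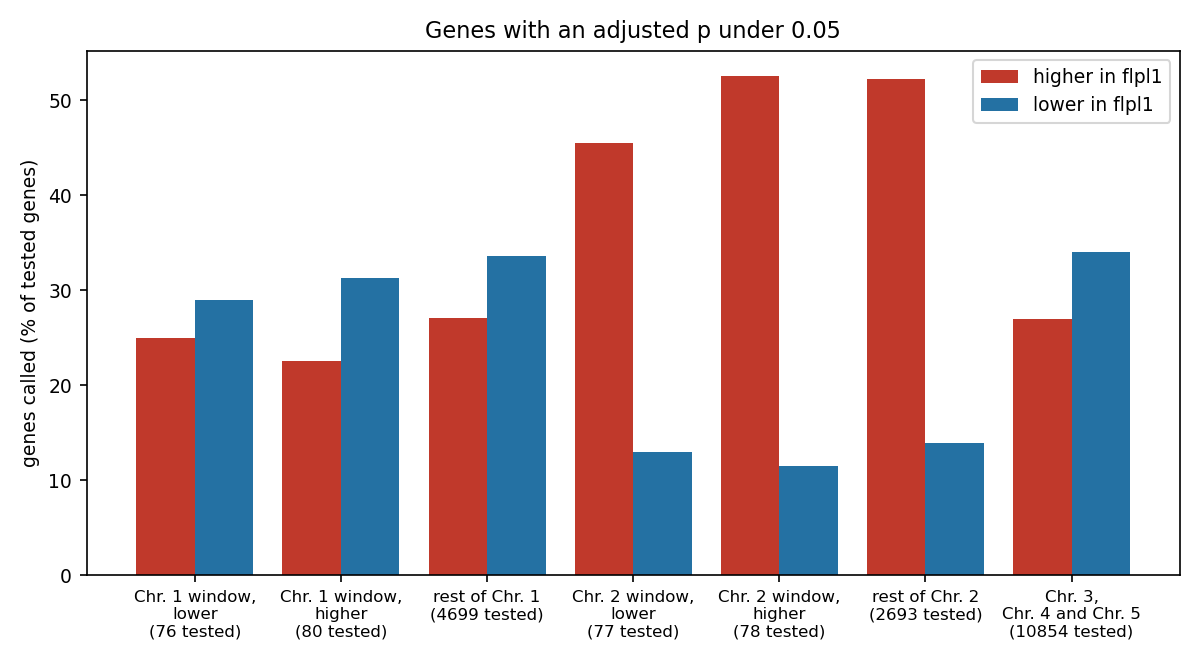
Percent of tested genes with an adjusted p under 0.05 (y axis) on each side of the breakpoint positions, in the rest of Chr. 1 and Chr. 2, and on the other chromosomes; red bars are genes higher and blue bars genes lower in *flpl1*. Higher calls make up 45.5% and 52.6% on the sides of the Chr. 2 position and 25% and 22.5% on those of the Chr. 1 position.

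On the lower-coordinate side of the Chr. 1 position, 19 of 76 tested genes were higher and 22 lower (median -0.12), and on the higher-coordinate side 18 of 80 were higher and 25 lower (median -0.02). On the lower-coordinate side of the Chr. 2 position, 35 of 77 were higher and 10 lower (median 0.47), and on the higher-coordinate side 41 of 78 were higher and 9 lower (median 0.62). The higher side exceeded the lower side by 0.11 on Chr. 1 and by 0.15 on Chr. 2. The order on Chr. 1 was not stable, with a difference of -0.16 without Col-0 replicate 1 and -0.095 within 250 kb. On Chr. 2 the difference stayed positive, at 0.088 to 0.32, under each other scaling, tool and filter and without each library. It depended on the width of the window, however, and was -0.055 within 250 kb and -0.37 within 100 kb. Grouped by the proposed junctions, the tested genes of the Chr. 1 lower side and the Chr. 2 higher side together had a median of 0.29, and those of the Chr. 2 lower side and the Chr. 1 higher side one of 0.19.

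In each library, the median deviation of the genes from their Col-0 mean was also taken relative to that of Chr. 3 to Chr. 5, as log2 CPM. On the lower side of the Chr. 2 position it was 0.48, 0.57 and 0.59 in *flpl1*, against 0.0065, -0.054 and 0.0011 in Col-0. On the higher side of the Chr. 2 position it was 0.76, 0.72 and 0.82 in *flpl1*, against 0.056, -0.071 and -0.016 in Col-0. The groups were apart on both sides of Chr. 2. On the lower side of the Chr. 1 position it was 0.032, 0.086 and 0.12 in *flpl1*, against 0.031, 0.028 and -0.025 in Col-0, so that the lowest *flpl1* value lay just above the highest Col-0 value. On the higher side of the Chr. 1 position it was 0.018, 0.068 and 0.10 in *flpl1*, against -0.093, 0.087 and 0.034 in Col-0, and the groups overlapped.

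**Figure D2:**
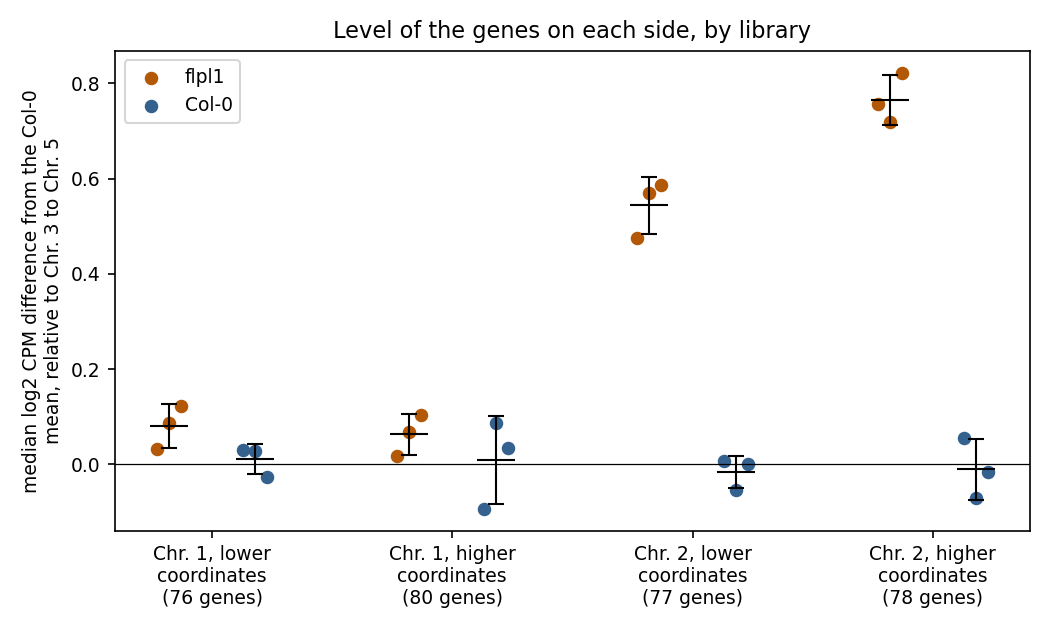
Median log2 CPM difference from the Col-0 mean, relative to Chr. 3 to Chr. 5 (y axis), for the tested genes on each side of the 2 positions; points are libraries, and bars are the mean ± SD of 3 libraries. The *flpl1* libraries sit between 0.48 and 0.82 on Chr. 2 and between 0.018 and 0.12 on Chr. 1.

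No trend with the distance appeared. The Spearman correlation of the log2 fold change with the distance was -0.00057 over the 156 tested genes of the Chr. 1 window and -0.084 over the 155 of the Chr. 2 window, and that of its size was 0.0072 and 0.016; these genes share their libraries and are not independent. In steps of 100 kb, the median of the Chr. 1 window lay between -0.67, at 200 to 300 kb on the higher side, and 0.23, at 100 to 200 kb on the lower side. The 16 and 18 tested genes within 100 kb of the Chr. 1 position had medians of 0.07 on the lower and 0.21 on the higher side. In the Chr. 2 window the steps lay between 0.24 and 0.89. The highest step was that of the 13 tested genes within 100 kb on the lower side, of which 10 were higher and 1 was lower in *flpl1*. Among the higher ones, *MES7* and AT2G23690 passed the filter on low counts only through the *flpl1* libraries, so the height of this step is not read as a result. The 15 genes within 100 kb on the higher side had a median of 0.52, with 9 higher and 3 lower. Each step holds at most 22 genes.

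**Figure D3:**
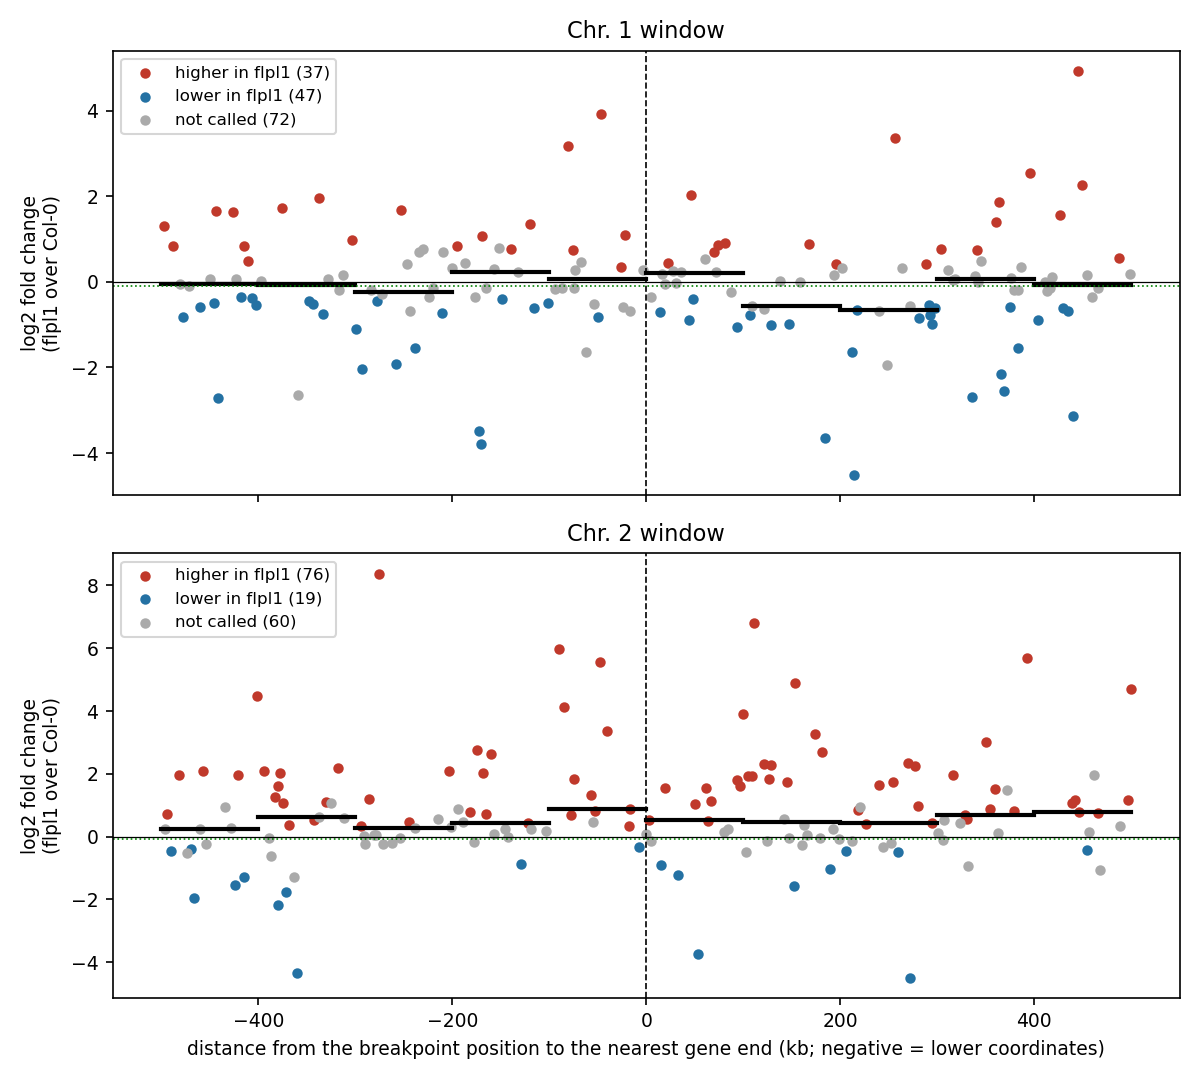
Log2 fold change of each tested gene (y axis) against its distance from the breakpoint position in kb (x axis), for both windows. Red points are genes higher in *flpl1*, blue points genes lower in *flpl1* and grey points genes not called; black lines are medians in steps of 100 kb and the green dotted line is the median of Chr. 3 to Chr. 5 at -0.09. Steps of Chr. 2 lie between 0.24 and 0.89 and those of Chr. 1 between -0.67 and 0.23.

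On the lower side of the Chr. 1 position, joined in the proposed structure to the higher-coordinate side of Chr. 2, 2 of the 5 nearest tested genes were called, beside 61.6% of all tested genes. The nearest, AT1G61900 (uncharacterized, 3.42 kb away), had 9.96, 14.5 and 11.0 FPKM in *flpl1*, against 10.4, 11.4 and 10.7 FPKM in Col-0, and the groups overlapped (log2 fold change 0.28, edgeR adjusted p = 0.17). *PPR336*, a mitochondrial pentatricopeptide repeat protein 21.9 kb away, had 17.2, 16.7 and 17.9 FPKM in *flpl1*, against 6.27, 12.2 and 8.57 FPKM in Col-0. All *flpl1* libraries were above all Col-0 libraries, by 1.10 ± 0.19 on the log2 scale (SE, edgeR adjusted p = 0.0018). AT1G61850, annotated as a phospholipase A I-like enzyme that would release fatty acids from lipids (26.1 kb), rose by 0.35, with 11.4, 9.80 and 10.3 FPKM in *flpl1* and 9.13, 9.07 and 9.04 FPKM in Col-0, and lost its call in 5 of 13 alternatives, among them without *flpl1* replicate 1 or 2 or Col-0 replicate 2 or 3 (edgeR adjusted p up to 0.11 in these). AT1G61890, a MATE family efflux carrier, had 10.6, 16.8 and 10.4 FPKM in *flpl1*, against 40.9, 12.1 and 11.9 FPKM in Col-0, where a single Col-0 library was high, and without it the log2 fold change was 0.27 in place of -0.69. The kinase AT1G61860 stayed at or under 1.02 FPKM in each library.

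On the higher side of the Chr. 1 position, a row of genes of the mitochondrial transcription termination factor (mTERF) family, proteins that act in the expression of organelle genomes, began 13.7 kb from the position. AT1G61960, the first of them, had 3.03, 3.69 and 3.82 FPKM in *flpl1*, against 5.46, 6.62 and 6.85 FPKM in Col-0. Its groups were apart, and it fell by 0.69 on the log2 scale (SE 0.16, edgeR adjusted p = 0.0069). AT1G61970 and AT1G61980 did not pass the test (log2 fold change 0.19 and -0.05). AT1G61990 rose by 0.44 with groups that overlapped in FPKM, and it lost its call in 6 of 13 alternatives. Among them were those without each library in turn except Col-0 replicate 2 (edgeR adjusted p up to 0.088 in these). AT1G61930, annotated as a senescence regulator 4.63 kb from the position, had 2.37, 1.59 and 1.75 FPKM in *flpl1*, against 0.51, 3.24 and 4.63 FPKM in Col-0, and the groups overlapped.

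On the lower side of the Chr. 2 position, the 5 nearest tested genes after *LYK4* were all called, beside 61.6% of all tested genes. One of them, AT2G23690, passed the filter on low counts only through the *flpl1* libraries, so this share is not read as a result. The calls of *BLH4* and *SUVR5* were lost in some alternatives. *BLH4*, a BEL1-like homeodomain factor that acts with its relatives in shaping the leaf margin, lay 7.66 kb away and had 18.7, 22.7 and 21.6 FPKM in *flpl1*, against 25.4, 34.3 and 28.5 FPKM in Col-0. It was lower in all *flpl1* libraries, by a log2 fold change of -0.33, but its edgeR adjusted p of 0.047 ranged from 0.026 to 0.13 and missed the threshold in 9 of 13 alternatives. AT2G23755, a transmembrane protein, had 12.1, 11.0 and 10.4 FPKM in *flpl1*, against 5.54, 7.97 and 6.72 FPKM in Col-0, and rose by 0.89. It overlaps *SUVR5*, a histone methyltransferase on the opposite strand, by 612 bp, so that reads of this stretch may be shared between them. *SUVR5* had 8.46, 9.03 and 9.19 FPKM in *flpl1*, against 6.70, 9.28 and 7.76 FPKM in Col-0, where the groups overlapped, and its rise of 0.32 lost the call in 5 of 13 alternatives, among them without *flpl1* replicate 2 or 3 or Col-0 replicate 1 or 3 (edgeR adjusted p up to 0.11 in these).

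Farther out on the lower side of the Chr. 2 position stood larger rises. AT2G23700, a protein of unknown function 40.6 kb away, had 5.53, 6.10 and 4.68 FPKM in *flpl1*, against 0.29, 0.81 and 0.67 FPKM in Col-0. It rose by 3.38 ± 0.31 on the log2 scale (SE, edgeR adjusted p = 0.00017). AT2G23690, listed as an HTH-type transcriptional regulator 47.7 kb away, had 39, 102 and 36 counts in *flpl1*, against 1, 0 and 3 counts in Col-0, or 1.81, 5.69 and 1.81 FPKM against 0.05, 0 and 0.17 FPKM. Both genes were above Col-0 in every *flpl1* library, AT2G23700 by far more than the median of the Chr. 2 window. AT2G23690 passed the filter on low counts only through the *flpl1* libraries, so the size of its rise is not read as a result.

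On the higher side of the Chr. 2 position, 2 of the 5 nearest tested genes rose and 2 fell, beside 30.9% and 30.7% of all tested genes. AT2G23780, a RING/U-box protein of the kind that attaches ubiquitin, lay 2.44 kb away and had 37.5, 34.9 and 35.1 FPKM in *flpl1*, against 26.1, 30.5 and 26.6 FPKM in Col-0, a rise of 0.52 ± 0.10 (SE, edgeR adjusted p = 0.0036). AT2G23820, a metal-dependent phosphohydrolase, had 36.7, 32.1 and 30.4 FPKM in *flpl1*, against 12.5, 12.2 and 13.3 FPKM in Col-0, and rose by 1.53. *TET8*, a tetraspanin known as a marker of extracellular vesicles, had 23.5, 30.4 and 27.9 FPKM in *flpl1*, against 65.5, 58.3 and 45.7 FPKM in Col-0, and its log2 fold change was -0.91 (SE 0.19, edgeR adjusted p = 0.0045). AT2G23840, an HNH endonuclease 32.9 kb away, had 45.7, 47.0 and 47.7 FPKM in *flpl1*, against 109, 116 and 143 FPKM in Col-0, and its log2 fold change was -1.24 (SE 0.13). *TET8* and AT2G23840 were below Col-0 in every library, against the direction of their chromosome's median. AT2G23790, a calcium uniporter, overlapped between the groups (-0.15).

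**Figure D4:**
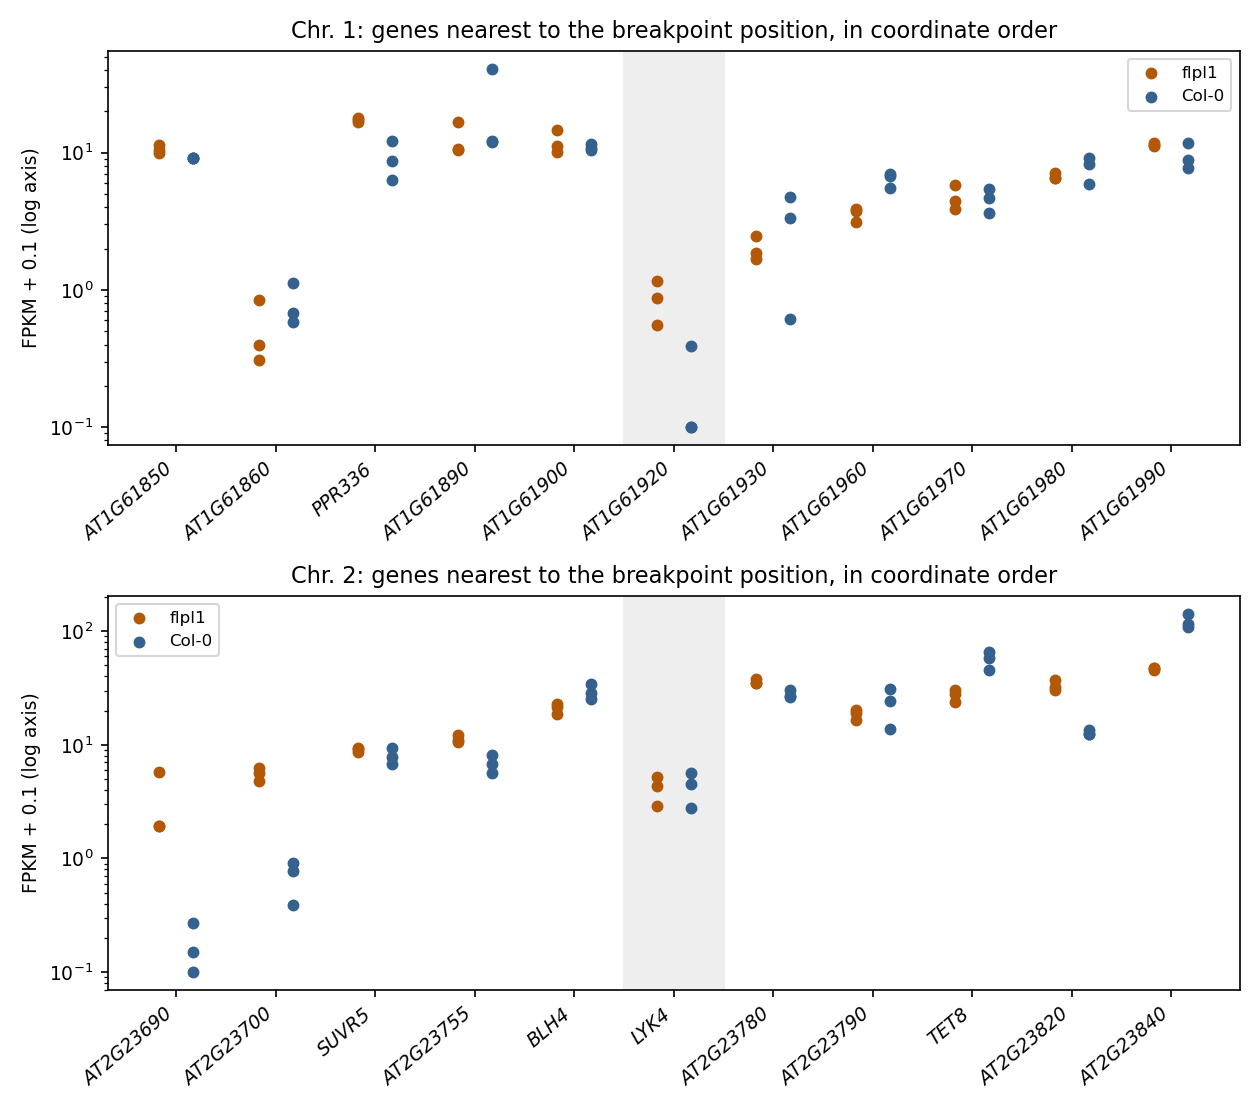
FPKM plus 0.1 on a log axis for the gene at each breakpoint position (grey band) and the 5 nearest tested genes on either side, in coordinate order; each point is a library, *flpl1* left and Col-0 right. *LYK4* overlaps between the groups at 2.82 to 5.09 FPKM in *flpl1* and 2.68 to 5.52 FPKM in Col-0, while AT2G23700 and AT2G23690 stand apart. AT2G23690 passed the filter only through *flpl1*.

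Among genes of at least 5 FPKM in each library of the higher group, the 5 with the largest falls in the Chr. 1 window included 2 neighbouring genes for RALF-like peptides, small secreted signals of cell growth. *RALFL9* had 0, 0.63 and 1.31 FPKM in *flpl1*, against 9.06, 14.2 and 6.53 FPKM in Col-0 (log2 fold change -3.79), and *RALFL8* had 0.08, 1.04 and 1.19 FPKM in *flpl1*, against 10, 12.5 and 5.94 FPKM in Col-0 (-3.49). AT1G62370, a RING/U-box protein, had a log2 fold change of -3.65. *IRT3*, a transporter of iron and zinc, had 3.04, 2.21 and 4.15 FPKM in *flpl1*, against 12.9, 23.2 and 32.5 FPKM in Col-0 (-2.70). *BETA-VPE*, a vacuolar processing enzyme that cleaves stored proteins, had 3.87, 4.19 and 5.80 FPKM in *flpl1*, against 14.5, 42.4 and 43.8 FPKM in Col-0 (-2.68). All 5 lay between 171 and 441 kb from the position, 3 of them on the lower and 2 on the higher side.

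Under the same limit of 5 FPKM, the 5 largest rises in the Chr. 1 window were 1.65 to 1.95 on the log2 scale. AT1G61170 (uncharacterized) had 5.88, 9.32 and 9.07 FPKM in *flpl1*, against 3.01, 1.33 and 2.47 FPKM in Col-0 (log2 fold change 1.95). AT1G62790, a protein of the lipid-transfer family that overlaps its neighbour by 41 bp, had 19.1, 20.8 and 19.7 FPKM in *flpl1*, against 5.84, 5.19 and 7.13 FPKM in Col-0 (1.86). AT1G61100, a TIR class disease resistance protein, and AT1G61350, an ARM repeat protein, rose by 1.72 and 1.67. *FED A*, a ferredoxin that carries electrons from photosystem I, was among the most abundant genes of the window, with 2590, 1867 and 1773 FPKM in *flpl1*, against 669, 735 and 807 FPKM in Col-0 (1.65 ± 0.22, SE). The mesophyll markers were also higher in *flpl1* by the sums given above, and their part in this value was not tested.

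The largest rise in the Chr. 2 window was that of *AGP17*, an arabinogalactan protein of the cell surface 275 kb from the position on the lower side. *AGP17* had 1332, 2072 and 1039 counts in *flpl1*, against 12, 1 and 2 counts in Col-0, or 51.5, 96.2 and 43.6 FPKM against 0.45, 0.04 and 0.10 FPKM. The log2 fold change was 8.38 ± 0.64 (SE, edgeR adjusted p = 0.00010). *PAB4*, a poly(A)-binding protein of mRNA, had 199, 112 and 94.9 FPKM in *flpl1*, against 22.6, 23.6 and 20.03 FPKM in Col-0 (2.77). *ATCSLC08*, of the family that makes the glucan backbone of xyloglucan, had 10.4, 12 and 10.6 FPKM in *flpl1*, against 1.75, 1.30 and 1.46 FPKM in Col-0 (3.01), and the receptor-like kinase AT2G24230 rose by 2.70. All Col-0 libraries were far below the *flpl1* libraries for these genes.

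*CLF*, the H3K27 methyltransferase of Polycomb repression that keeps flower genes silent in leaves, had 7.61, 7.09 and 7.30 FPKM in *flpl1*, against 1.37, 1.30 and 1.23 FPKM in Col-0. Its groups were apart with little spread, and the log2 fold change was 2.64 ± 0.14 (SE, edgeR adjusted p = 6.6e-05). Of 8 histone methyltransferases, 3 of them in the Chr. 2 window, 7 were tested, 3 were higher and 1 was lower, with a median of 0.24, and 57.1% were called, near the 61.6% of all tested genes. The higher ones were *CLF*, *SUVH5* (2.02) and *SUVR5* (0.32), and the lower one was *SWN*, the partly redundant relative of *CLF* on Chr. 4, with 12.1, 12.5 and 13.7 FPKM in *flpl1*, against 20.7, 27.9 and 29.96 FPKM in Col-0 (-0.88). *SUVH6*, also in the Chr. 2 window, did not pass the test (-0.22, edgeR adjusted p = 0.16). It overlaps AT2G22730 on the opposite strand by 1496 bp, so that reads of this stretch may be shared between them.

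In the Chr. 2 window 3 genes fell under the same limits, for which no share over all genes was taken. Without the limits on FPKM and overlap, 7.1% of tested genes in this window fell at least 2-fold. That share was 7.7% in the rest of Chr. 2 and 14.4% over all tested genes. *HAT9*, a homeodomain-leucine zipper factor, had 9.02, 9.17 and 12.1 FPKM in *flpl1*, against 27.7, 27.3 and 26.1 FPKM in Col-0 (log2 fold change -1.28). AT2G24240, a BTB/POZ protein, had a log2 fold change of -1.04, and AT2G23840 was described above.

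Methyl esterases, which release hormones such as salicylic acid, jasmonic acid and auxin from their methyl esters, form a cluster on the lower side of the Chr. 2 position. The product names matched 9 window genes, 2 of which are pectin methylesterase inhibitors on Chr. 1, and 3 of them, all in the cluster, were tested. Their calls were not counted against the background, since *MES7* passed the filter on low counts only through the *flpl1* libraries. *MES3* had 116, 125 and 109 FPKM in *flpl1*, against 35.2, 34.6 and 38.1 FPKM in Col-0 (1.85 ± 0.13, SE), and *MES8* had 6.97, 7.18 and 4.32 FPKM in *flpl1*, against 0.49, 0.10 and 0.55 FPKM in Col-0 (4.14). *MES7* had 132, 48 and 14 counts in *flpl1*, against 3, 0 and 0 counts in Col-0, a ratio of 65.7 with a 95% counting interval of 22.1 to 321. These values were above those of Col-0 in every *flpl1* library, while *MES4*, *MES6* and *MES19* had no count in any library and MES1 was too low to be tested. *ACL* (AT2G23600), of the same cluster but named for another activity and picked after its values were seen, had 338, 348 and 330 FPKM in *flpl1*, against 227, 266 and 208 FPKM in Col-0 (0.69).

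Serine carboxypeptidase-like genes, relatives of proteases that include acyltransferases of sinapate esters, numbered 8, of which 6 were tested, 3 were higher and none was lower (median 0.84), near the 52.2% higher in the rest of Chr. 2 and beside 30.9% over all tested genes. *SCPL9* had 31.9, 26.1 and 37.0 FPKM in *flpl1*, against 8, 3.68 and 11.2 FPKM in Col-0 (2.18), *scpl23* rose by 1.79 and *SCPL11* by 0.53, the last with overlapping groups and without a call when Col-0 replicate 3 was left out. *PRPL35*, a protein of the plastid ribosome and the single ribosomal protein found, had 434, 308 and 254 FPKM in *flpl1*, against 86.3, 72.0 and 62.2 FPKM in Col-0 (2.32).

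The lists of genes that lie mostly on Chr. 1 held changes in both directions, to be read beside the 30.9% higher and 30.7% lower over all tested genes. Of 6 disease resistance genes, all tested, 1 was higher and 3 were lower (median -0.37); the lower ones were AT1G61180 (-0.75), AT1G62630 (-0.62) and AT1G61300 (-0.44). Of 15 genes of lectin or S-locus receptor kinases, 10 were tested, 1 was higher (AT1G61500, 0.84) and 1 lower (AT1G61460, -0.73, call lost in 7 of 13 alternatives), with a median of 0.36. Of 10 mTERF genes 9 were tested, 3 were higher and 1 was lower (median 0.26), and of 9 pentatricopeptide repeat genes 8 were tested, 3 were higher and none was lower (median 0.17). The mTERF and pentatricopeptide genes that rose, apart from *PPR336*, changed by 0.42 to 0.90, and each lost its call on leaving out at least 1 library (AT1G62350 in 7, AT1G61990, AT1G62110 and AT1G62590 in 6 each and AT1G62150 in 1 of 13 alternatives). AT1G62590 shares 1680 bp at 99.0% identity with another gene, so that its value is uncertain.

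Flavin monooxygenases and cytochromes P450 numbered 10 in both windows together, of which 7 were tested, 1 was higher and 3 were lower (median -0.54), so that 57.1% were called, near the 61.6% of all tested genes. *FMO GS-OX4*, which oxidises the side chains of glucosinolates, had 5.02, 4.21 and 4.76 FPKM in *flpl1*, against 7.26, 8.77 and 11.96 FPKM in Col-0 (-0.84). AT1G62600 and AT1G62620 had log2 fold changes of -0.54 and -0.99, share 477 and 2192 bp with other genes at 97.5% and 96.8% identity and overlap AT1G62610 on the opposite strand, and are uncertain; AT1G62620 lost its call in 5 of 13 alternatives, 4 of them leaving out 1 library. *CYP96A1*, on Chr. 2, rose by 0.47 with overlapping groups and lost its call in 6 of 13 alternatives, among them without *flpl1* replicate 2 or 3 or Col-0 replicate 2 or 3 (edgeR adjusted p up to 0.18 over all alternatives).

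Product names of transcription factors and zinc finger proteins matched 33 window genes, of which 21 were tested, 8 were higher and 5 lower (median 0.68), so that 61.9% were called, near the 61.6% of all tested genes. Among the higher ones, AT2G24700 passed the filter on low counts only through the *flpl1* libraries, so this share is not read as a result. Some of these, such as the splicing factor *RSZ22a* (0.68), do not bind promoters. On Chr. 2, 7 higher ones were found, and on Chr. 1 only *KNAT7*, but most tested genes of the list lie on Chr. 2. In the windows as a whole, 49.0% of tested genes were higher on Chr. 2 and 23.7% on Chr. 1. The split is therefore not read as a result about these genes. *KNAT7*, a KNOX factor of secondary wall formation, had 1.48, 1.93 and 1.60 FPKM in *flpl1*, against 0.40, 0.42 and 0.31 FPKM in Col-0 (2.27). *WRKY17*, a regulator of basal resistance, had 23.4, 15.4 and 14.0 FPKM in *flpl1*, against 5.69, 3.91 and 5.49 FPKM in Col-0 (1.95). The B3 family genes AT2G24645 and AT2G24690 rose by 1.52 and 0.82, and AT2G24700 had 63 counts over the *flpl1* libraries and 1 over the Col-0 libraries, a ratio of 64.0 (95% counting interval 11.1 to 2566). *WRKY6*, a factor of senescence and defence on Chr. 1, had 3.88, 2.76 and 3.26 FPKM in *flpl1*, against 6.14, 7.43 and 8.78 FPKM in Col-0 (-1.02), and the bHLH gene AT1G62975 had 0.31, 0.46 and 0.46 FPKM in *flpl1*, against 3.40, 3.57 and 5.07 FPKM in Col-0 (-3.14).

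Of the 2 photosynthesis genes in the windows, *FED A* rose as given above. *LHCA3*, a light-harvesting protein of photosystem I and the most abundant window gene, had 3443, 3785 and 3673 FPKM in *flpl1*, against 3972, 2111 and 2713 FPKM in Col-0, with overlapping groups (0.43, edgeR adjusted p = 0.29).

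**Figure D5:**
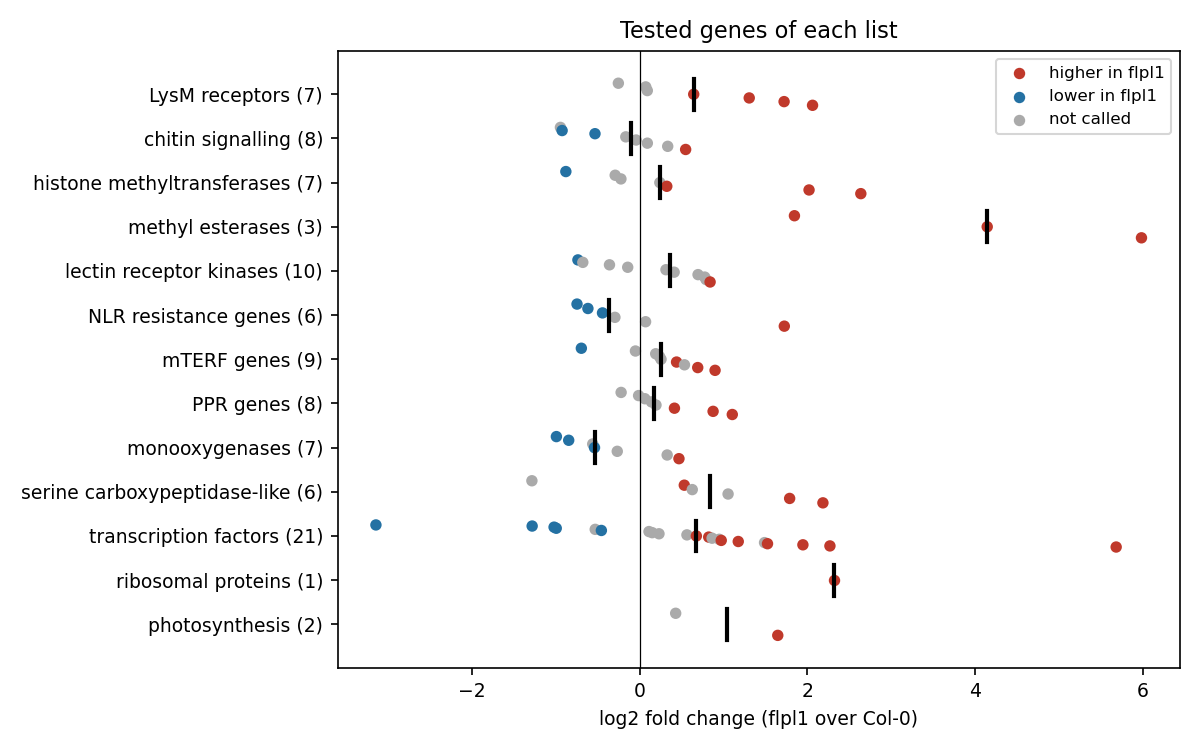
Log2 fold change (x axis) of the tested genes of each list, with the number tested in brackets; red points are higher, blue points lower in *flpl1* and grey points not called, and black bars are medians. The LysM, chitin signalling and histone methyltransferase lists include genes outside the windows. The median is -0.54 for monooxygenases and 0.84 for serine carboxypeptidase-like genes. *MES7* of the methyl esterases and AT2G24700 of the transcription factors passed the filter only through *flpl1*.

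There were 6 window genes with at least 10 counts over the libraries of 1 group and none in the other. The share of such genes over all listed genes was not taken, so their number is not read as a result. AT2G23960 had 19, 25 and 9 counts in *flpl1* and *QWRF4*, a microtubule-associated QWRF protein, 12, 13 and 14 counts, and neither had a count in Col-0, so that they were at least 17.9-fold and 13.2-fold higher with Col-0 set to 3 counts over the group. AT1G61230 and AT1G61480, on Chr. 1, had no count in *flpl1*, against 11 and 10 counts over the Col-0 libraries, and were at least 3.61-fold and 3.28-fold lower. NOGC1, of the flavin monooxygenase family, had no count in *flpl1*, against 0, 8 and 29 counts in Col-0 (at least 12.1-fold lower), and AT1G62935, also on Chr. 1, had 0, 10 and 6 counts in *flpl1* and none in Col-0 (at least 5.42-fold higher). In both of these a library of the group with counts was at 0 too, so that the groups overlapped. NOGC1 also shares 1072 bp at 97.3% identity with AT1G77990, so that its value is uncertain. The bounds and the counting intervals use the library totals and cover counting error only.

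At the edges of the windows, the outermost genes inside were *ACLA-2* (log2 fold change 1.32) and AT1G63080 (0.20) on Chr. 1 and *BRK1* (0.25) and AT2G24970 (4.71) on Chr. 2. AT2G24970 had 54, 17 and 33 counts in *flpl1*, against 3, 1 and 0 counts in Col-0. It passed the filter on low counts only through the *flpl1* libraries, so its value is not read as a result. The first genes outside were *NIK3* (0.47) and *PP2-A11* (-0.66) on Chr. 1, and *AGL17* and *EXT6* on Chr. 2, of which neither was tested.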

How the data were processed

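Raw read counts per gene and FPKM were used as deposited. They were made by the authors with Cutadapt 1.9.1, HISAT2 (TAIR10) and HTSeq 0.6.1. The deposited FPKM is the count scaled to exonic length and to the counts of the library, and 100% of values lay within 0.01 of that. The annotation version and the use of strand are not given in the sources used here. Gene names and products came from the RefSeq TAIR10.1 annotation (535 of 545 window genes matched), because the description column of the tables was empty, and lists defined by words were matched to these products. Sequences came from the same assembly; the start and end of 280 of the 545 genes were feature ends there.

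Counts were tested with edgeR 4.0.16 (R 4.3.3; TMM, filterByExpr, quasi-likelihood, group as the single term, Benjamini-Hochberg over the 18638 tested genes; called at an adjusted p under 0.05). Whether groups overlapped was judged on the deposited FPKM throughout, whereas the fold changes also use the TMM factors. These were 0.93 to 0.98 in *flpl1* and 0.97 to 1.13 in Col-0. Groups that overlap in FPKM can thus be apart on the scale of the fit, and the reverse. Near-identical copies were BLAST 2.17.0 matches of at least 100 bp at 95% identity, found for 31 window genes. Named were the genes at the positions, the 5 nearest tested genes per side, per window the 5 largest rises and falls (at least 2-fold, groups apart, 5 FPKM in each library of the higher group), and list members. The windows, lists and tests were chosen with earlier results of these data known. DESeq2 1.42.0, limma 3.58.1 on log2(FPKM + 1), other scalings and filters, the replicate number as a block, narrower windows and leaving out each library were alternatives. The method was tested on simulated data.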

Additional observations from a re-analysis of the deposited data

How the results depend on the processing

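The counts of higher and lower genes in both windows stayed within 1.5 times under each other scaling, filter and tool. Scaling on genes outside Chr. 2 gave medians of 0.046 on Chr. 1 and 0.62 on Chr. 2, and limma on log2(FPKM + 1) gave -0.17 and 0.31. DESeq2 moved the Chr. 1 median to -0.12, the test of unfiltered genes to -0.13 and a mean of at least 1 FPKM to -0.11. The sides of Chr. 2 differed by 0.32 both in DESeq2 and among unfiltered genes. For half-widths of 250 and 100 kb, which hold fewer genes, 16 and 10 genes were higher and 19 and 5 lower on Chr. 1, and 40 and 19 higher and 8 and 4 lower on Chr. 2. The higher side minus the lower side was then -0.095 (250 kb) on Chr. 1, and -0.055 and -0.37 on Chr. 2. The medians within 100 kb were 0.21 and 0.85, the latter with *MES7* and AT2G23690 among its genes. Leaving out each library in turn gave 26 to 43 higher and 39 to 50 lower genes on Chr. 1, 68 to 82 higher and 11 to 20 lower genes on Chr. 2 (11 without *flpl1* replicate 2), medians of -0.058 to 0.0035 and 0.48 to 0.57, and side differences of -0.16 to 0.083 (-0.16 without Col-0 replicate 1) and 0.13 to 0.32.

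Of 62 named genes that were called, 49 kept direction and call in all 13 alternatives, 13 lost the call in at least 1, and none reversed. Those 13 were AT1G61850, AT1G61990, *BLH4*, *SUVR5*, AT1G61460, AT1G62110, AT1G62150, AT1G62350, AT1G62590, AT1G62620, *CYP96A1*, *SCPL11* and *EDA16*. Each of them lost it on leaving out at least 1 library, the highest adjusted p of a gene over its alternatives being 0.060 to 0.39, and the cause was not tested. Among uncalled genes, *LYK4* reversed with limma (-0.027) and AT1G61980 when scaled on the other chromosomes (0.048). Leaving out 1 library gave -0.18 to 0.40 for *LYK4* (negative without replicate 3 of either group), -1.02 to 0.27 for AT1G61890 (positive without Col-0 replicate 1), -0.84 to 0.23 for AT1G61930 and -0.38 to 0.11 for AT2G23790 (both positive without Col-0 replicate 3), and -0.17 to 0.020 for AT1G61980 (positive without Col-0 replicate 2). Same-numbered libraries did not deviate together (correlations of 0.025, -0.12 and 0.10). With the replicate number as a block, 32 genes were higher and 44 lower on Chr. 1, and 74 higher and 16 lower on Chr. 2, with medians of -0.050 and 0.52 and side differences of 0.097 and 0.21. With 3 plants per group and 19465078 to 24633070 counts per library, changes near the size of an extra copy are called in only part of the genes, and genes with few counts are the least certain.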
